A study of Mus musculus with 19 samples.

Results

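The genes described here encode the CD3 complex of the T cell receptor and the first proteins that relay its signal: the CD3 chains Cd3d, Cd3e, Cd3g and Cd247, the adaptors Themis, Trat1 and Lat, the kinases Lck and Zap70, and the surface protein Cd5. They were chosen by name for their known roles, without a threshold on any measured value but with earlier results of these data known. All 10 are among the 18607 genes of the deposited expression table. They were followed by RNA-seq in 19 libraries of cells sorted as progenitors out of C57BL/6 mouse bone marrow. ALP (7 libraries) were lineage-low, Ly-6D-low cells carrying Kit, IL-7Ra and much Flt3. EILP (7 libraries) were likewise lineage-low and Ly-6D-low, had little CD122 and Thy-1.2, carried Kit, and were bright for GFP with intermediate to low IL-7Ra. ILCp (5 libraries) carried Kit, Thy-1.2, the integrin a4b7 and much IL-7Ra, and were also bright for GFP. All ALP and EILP libraries and ILCp 1 to 3 came from Tcf7EGFP/+ mice, so the ALP used for comparison carry that allele too, with 1 reporter allele of Tcf7. ILCp 4 and ILCp 5 came from Plzf-cre-GFP/+ mice and report a different gene. The sources used here give neither the age of the mice nor the number pooled per library. Nothing states that replicate libraries are from different mice, and the p-values therefore reflect a spread among libraries that may be technical.

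The T cell receptor has no signalling tail of its own. The CD3 chains carry the tyrosine motifs (ITAMs) that Lck phosphorylates after the receptor is engaged, Zap70 binds the phosphorylated motifs, and Zap70 then phosphorylates Lat, the membrane scaffold on which calcium and Ras signalling is assembled. Innate lymphoid cells and their progenitors carry no rearranged T cell receptor on their surface, yet natural killer cells use the CD3 zeta chain encoded by Cd247 with other receptors, and several T cell signalling genes are known to be transcribed in lymphoid progenitors.

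The promoters of 4 members are printed because these genes passed the test for ILCp against ALP, described further on. Each runs 5′ to 3′ on the gene's own strand, from 250 bases before the annotated start to 50 bases after it (RefSeq, GRCm38.p6). Themis lies at chr10:28668110-28668409 on the plus strand, Trat1 at chr16:48772013-48772312 on the minus strand, Cd3d at chr9:44981536-44981835 on the plus strand and Cd3g at chr9:44980382-44980681 on the minus strand. Capitals mark the TCF/LEF letters TCAAAG, the RUNX letters TGTGGT, the GATA letters AGATAA and the ETS letters CCGGAA, each searched on both strands.
Themis: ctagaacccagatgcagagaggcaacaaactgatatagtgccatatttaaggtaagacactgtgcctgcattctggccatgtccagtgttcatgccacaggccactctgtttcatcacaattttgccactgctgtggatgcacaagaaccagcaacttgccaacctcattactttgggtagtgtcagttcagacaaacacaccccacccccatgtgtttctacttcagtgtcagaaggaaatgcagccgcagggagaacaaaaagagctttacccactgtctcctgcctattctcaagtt
Trat1: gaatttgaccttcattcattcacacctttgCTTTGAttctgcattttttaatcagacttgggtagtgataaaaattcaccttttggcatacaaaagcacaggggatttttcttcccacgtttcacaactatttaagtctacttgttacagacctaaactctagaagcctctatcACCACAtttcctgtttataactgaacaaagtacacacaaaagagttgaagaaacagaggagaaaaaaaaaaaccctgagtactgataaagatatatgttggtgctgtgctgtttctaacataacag
Cd3d: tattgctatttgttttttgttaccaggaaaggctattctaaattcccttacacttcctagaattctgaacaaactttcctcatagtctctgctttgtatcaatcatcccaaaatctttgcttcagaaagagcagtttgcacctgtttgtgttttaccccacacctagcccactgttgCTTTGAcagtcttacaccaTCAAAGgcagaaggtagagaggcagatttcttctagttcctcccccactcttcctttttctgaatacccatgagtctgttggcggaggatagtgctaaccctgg
Cd3g: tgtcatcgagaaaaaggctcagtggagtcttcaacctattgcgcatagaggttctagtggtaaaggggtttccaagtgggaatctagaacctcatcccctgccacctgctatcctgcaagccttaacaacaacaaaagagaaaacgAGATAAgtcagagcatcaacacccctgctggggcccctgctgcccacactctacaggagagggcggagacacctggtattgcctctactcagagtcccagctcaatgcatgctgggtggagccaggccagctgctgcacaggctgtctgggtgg
The Themis window held none of these 4 motifs, Trat1 held a TCF/LEF and a RUNX match, Cd3d held 2 TCF/LEF matches and Cd3g held a GATA match. All 10 members had at least 1 listed promoter, 14 windows in all, of which the 2 of Themis overlap each other. TCAAAG was in 4 of the 14 windows and in 16.0% of 32851 mouse promoters of the same length, TGTGGT in 4 of 14 against 16.8%, AGATAA in 1 of 14 against 11.2%, CCGGAA in 1 of 14 against 14.9%, and the E box CANNTG in 13 of 14 against 72.3%. E boxes are not marked by capitals. These matches describe letters in a window and not binding sites.

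The 3 genes Cd3g, Cd3d and Cd3e stand side by side on chromosome 9 within 40056 bases (GENCODE M21, GRCm38). Cd3g and Cd3d are read away from each other, and their starts are 1355 bases apart. Cd247 is on chromosome 1 and shares stretches with Pou2f1 on the opposite strand and with Gm16565 on its own strand. The library kit does not mark strand, so reads from Cd247 and these overlapping genes cannot be told apart where they overlap.

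Levels are the deposited log2 CPM (the log of reads per gene relative to the library's total). In these values no batch difference was left beside the groups, and the library medians lay between 2.13 and 3.00 log2 CPM. The depth behind each library is unknown, so no counting interval can be given. Within a sequencing batch, a gene without reads has a single lowest value shared by its undetected libraries. That value, called the zero level here, differs between batches because batch was removed from the data, and its mean over batches was −4.96. Of 4605 rarely detected genes, the share at the zero level was 63.4% to 90.2% in ALP, 65.3% to 89.8% in EILP and 60.6% to 85.8% in ILCp. It was lowest in ILCp 5 and highest in ALP 7. Of the genes behind the sort, Flt3 had mean levels of 10.21, 7.34 and 3.25 in ALP, EILP and ILCp, Tcf7 had 1.06, 10.51 and 9.24, and Thy1 had −2.84, 0.07 and 5.30. Il2rb, the gene of CD122, went against the sort of EILP for little CD122, with means of −1.68, 7.14 and 6.61. Among mature T cell markers, Cd4 was above the zero level in 5 of 7 ALP, 0 of 7 EILP and 2 of 5 ILCp. Cd8a was above it in 1 of 7, 1 of 7 and 3 of 5, Cd8b1 in 0 of 7, 2 of 7 and 2 of 5, and Cd2 in 1 of 7, 3 of 7 and 4 of 5. Of 12 listed mature T cell genes, 10 are in the table. Their summed CPM was 172 to 281 in ALP, 345 to 507 in EILP and 535 to 1386 in ILCp. This sum follows its most abundant genes. Trbc1 had means of −3.50, 7.69 and 9.48 in ALP, EILP and ILCp, and Cd27 had 7.65, 6.97 and 6.92. Cd27 was lower in EILP (limma adjusted p = 0.0360) and in ILCp (0.0345) than in ALP. Summed CPM over 10 natural killer cell genes was 116 to 313, 407 to 706 and 485 to 705. Nkg7 was the most abundant of these, with means of 7.46, 8.93 and 8.93. The summed CPM was 551 to 6341, 1618 to 41748 and 89.9 to 1695 over 8 myeloid genes, and 2.26 to 130, 34.1 to 534 and 18.1 to 759 over 8 erythroid genes. In bulk RNA, fewer cells with a transcript and less transcript per cell cannot be told apart.

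Cd3d, Cd3e and Cd3g, the chains that form the paired CD3 dimers, were at the zero level in 7 of 7 ALP, and appeared in part of the EILP and ILCp libraries. Cd3d was above it in 4 of 7 EILP and 5 of 5 ILCp, Cd3e in 4 of 7 and 2 of 5, and Cd3g in 5 of 7 and 4 of 5. All 3 were above zero together in EILP 3, EILP 7, ILCp 2 and ILCp 5. Of the rest, EILP 2, EILP 5, ILCp 1 and ILCp 3 had 2 of the 3, and ILCp 4, EILP 1, EILP 4 and EILP 6 had 1. Summed CPM of the 3 genes was from 1.11 to 12.1 in EILP and from 0.808 to 28.7 in ILCp.

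**Figure D1:**
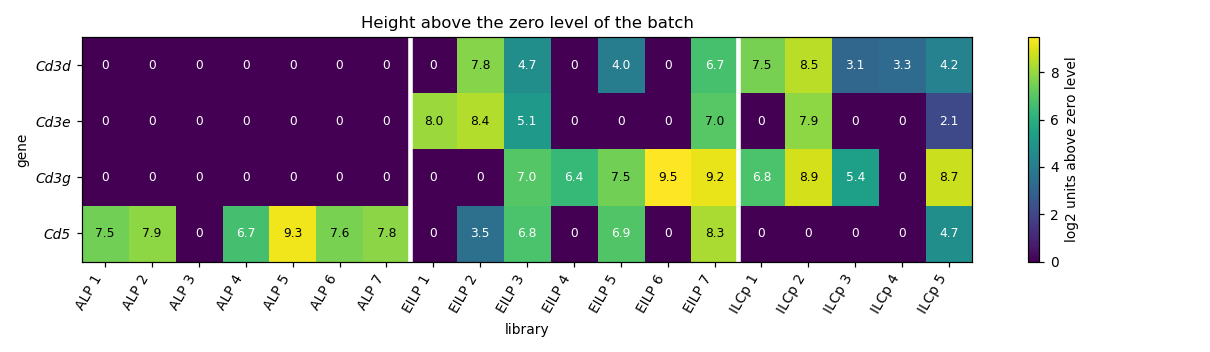
Height of Cd3d, Cd3e, Cd3g and Cd5 above the zero level of their batch, in log2 units, in each of the 19 libraries grouped as ALP, EILP and ILCp. The 3 CD3 genes lie at 0 in all 7 ALP and scatter between 0 and 9.48 in the other libraries, while Cd5 is above 0 in 6 of 7 ALP and in 1 of 5 ILCp.

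Cd3d encodes the CD3 delta chain. Its log2 CPM in EILP 1 to 7 was −4.65, 0.73, 0.82, −3.89, 0.03, −5.26 and 1.47, of which EILP 1, 4 and 6 were at the zero level. In ILCp 1 to 5 it was 2.89, 1.45, −0.83, −0.64 and 0.22. The lowest ILCp library was thus above the highest ALP value of −3.96, and the groups did not overlap, whereas EILP held both undetected libraries and libraries as high as ILCp. Cd3d was higher in ILCp than in ALP (limma adjusted p = 0.0209). No fold is given because every ALP library was at the zero level. The call was lost in 5 of 31 alternatives: without ILCp 1 (adjusted p = 0.0982), without ILCp 2 (0.109), without the Plzf-cre-GFP/+ libraries (0.0555), without batch 4 (0.0720) and with a required 2-fold change (0.0890). The adjusted p ranged from 2.98e-09 to 0.109 over 31 alternatives. EILP did not pass against ALP (adjusted p = 0.117), nor ILCp against EILP (log2 difference 2.15 ± 1.59 SE, adjusted p = 0.543).

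Cd3g encodes the CD3 gamma chain. It was −3.25, −4.25, 0.51, −0.10, 3.36, 2.74 and 2.43 log2 CPM in EILP 1 to 7, with the first 2 at the zero level, and 3.55, 4.63, 1.26, −4.10 and 4.62 in ILCp 1 to 5, with ILCp 4 at the zero level. The libraries of each later stage thus reached from undetected to clearly detected. Cd3g passed in ILCp against ALP (adjusted p = 0.0370, no fold for the same reason), and this call was lost in 19 of 31 alternatives with the highest value without ILCp 2 (adjusted p = 0.220, range 1.53e-08 to 0.220). EILP against ALP gave an adjusted p of 0.1005, and ILCp against EILP a log2 difference of 1.78 ± 2.07 SE (adjusted p = 0.730).

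Cd3e encodes the CD3 epsilon chain, which pairs with both the delta and the gamma chain. In EILP 1 to 7 it measured 2.4, 0.68, 1.92, −3.20, −3.24, −5.03 and 1.99 log2 CPM, with EILP 4, 5 and 6 at the zero level. In ILCp 1 to 5 it measured −5.64, 0.19, −3.24, −3.24 and −1.14, with ILCp 1, 3 and 4 at the zero level. More EILP than ILCp libraries were thus above zero, the ranges overlapped, and the log2 difference of −1.97 ± 1.79 SE did not pass (adjusted p = 0.643). Neither EILP (adjusted p = 0.0757) nor ILCp (adjusted p = 0.349) passed against ALP. Beside these chains, the T cell receptor constant gene Trbc1 was higher in EILP than in ALP (adjusted p = 5.78e-07), with mean levels of −3.50, 7.69 and 9.48 in ALP, EILP and ILCp. Trbc2 was higher in EILP by a log2 difference of 3.30 ± 0.78 SE (adjusted p = 0.0198). The constant gene Trac had means of −3.55, −0.71 and −0.33 in ALP, EILP and ILCp. It did not pass in EILP (adjusted p = 0.287) or in ILCp (adjusted p = 0.244) against ALP. The part of other cells in the CD3 signal was not tested.

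Cd247, which encodes the zeta chain, differed from the other CD3 chains in ALP, where its median was 4.23 log2 CPM. No library could be placed at a zero level for it, and since that level differs between batches, detection in EILP 2 (−1.94) is not shown. It was 1.04, 4.23 and 8.37 log2 CPM at the lowest, the median and the highest in ALP, and −1.94, 2.62 and 4.31 in EILP. In ILCp 1 to 5 it was 5.05, 8.75, 4.08, 3.53 and 6.17. ALP 2 and ILCp 2, both of batch 2, were the highest libraries, while EILP 2 of the same batch was the lowest, and all 3 groups overlapped. Cd247 passed in no comparison. The log2 difference was −1.83 ± 1.30 SE for EILP against ALP (adjusted p = 0.509), 3.17 ± 1.54 for ILCp against EILP (adjusted p = 0.318) and 1.34 ± 1.49 for ILCp against ALP (adjusted p = 0.689). Without EILP 2 the first was −0.21 and the second 1.58, and without ILCp 2 the second was 1.53 and the third −0.49. Of the genes that share its locus, Gm16565 had mean levels of −1.09, −0.01 and 4.72 in ALP, EILP and ILCp, and Pou2f1 had 4.50, 4.16 and 4.95. Their part in the Cd247 level was not tested.

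**Figure D2:**
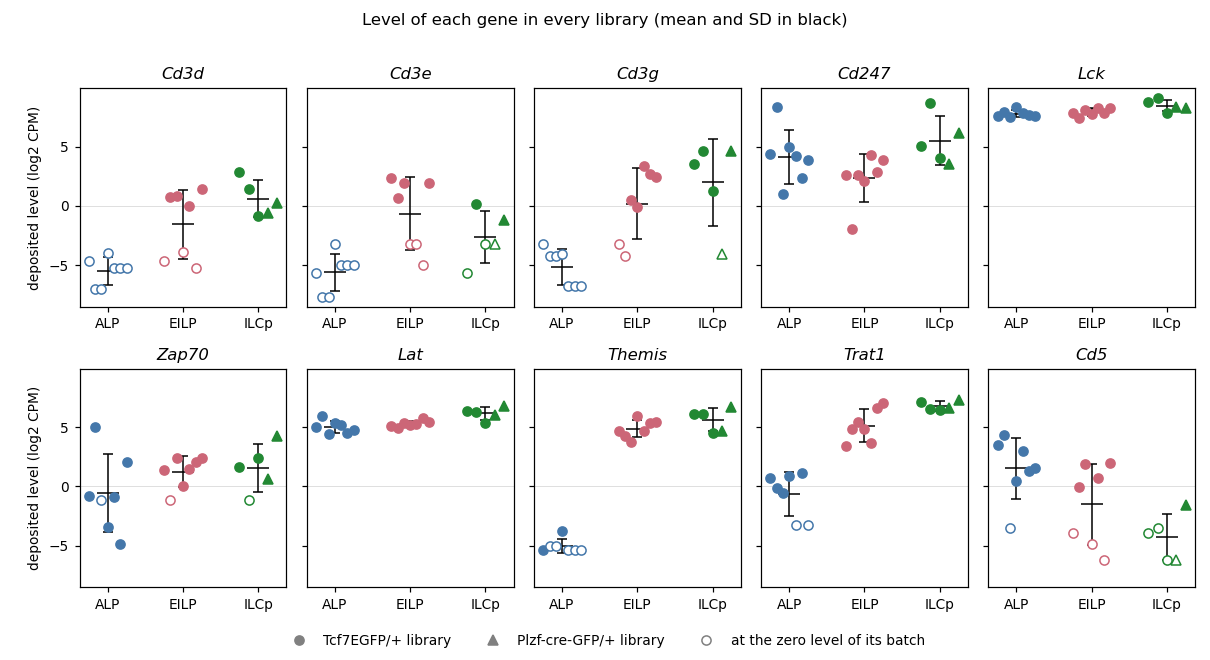
Deposited log2 CPM of the 10 genes in every library of ALP, EILP and ILCp, with the group mean and SD in black. Open points are at the zero level, triangles are the Plzf-cre-GFP/+ libraries. Themis and Trat1 separate ALP from both later groups, while Lat and Lck lie close together in all 3.

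Themis and Trat1 were the members that separated both later stages from ALP, and Lat was present at every stage. Themis encodes an adaptor that tunes receptor signalling in developing thymocytes. It was −5.40, −5.37 and −3.79 log2 CPM at the lowest, the median and the highest in ALP, 3.81, 4.68 and 5.98 in EILP, and 6.18, 6.16, 4.51, 4.71 and 6.71 in ILCp 1 to 5. In ALP, 5 of 7 libraries were at the zero level and ALP 1 and ALP 4 could not be resolved, whereas the lowest EILP library was far above all of them. Themis was higher in EILP (limma adjusted p = 1.51e-07) and in ILCp (adjusted p = 2.49e-07) than in ALP. No fold is given against ALP, for the reason given for Cd3d. Both calls held in all 31 alternatives. EILP and ILCp overlapped, and their log2 difference of 0.76 ± 0.75 SE did not pass (adjusted p = 0.683).

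Trat1 encodes TRIM, a transmembrane adaptor that associates with the CD3 zeta chain. It was −3.23, −0.12 and 1.13 log2 CPM at the lowest, the median and the highest in ALP, with ALP 5 and ALP 7 at the zero level. It was 3.46, 4.86 and 7.10 in EILP, and 7.19, 6.56, 6.48, 6.61 and 7.37 in ILCp 1 to 5. Neither later group overlapped ALP, while EILP 6 and EILP 7 reached the ILCp range. Trat1 was higher by 5.79 ± 0.90 log2 units (SE) in EILP (adjusted p = 0.000857) and by 7.47 ± 1.03 in ILCp (adjusted p = 0.000221) than in ALP, and both calls held in all 32 alternatives. The difference between EILP and ALP was 2.75, 5.19, 2.82 and 8.66 within batches 1, 2, 4 and 5. ILCp against EILP gave 1.68 ± 1.06 (adjusted p = 0.459), with within-batch differences of 3.73, 1.70 and 3.11 in batches 1, 2 and 4.

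Lat, the scaffold that Zap70 phosphorylates, was 4.46, 5.03 and 5.94 log2 CPM at the lowest, the median and the highest in ALP and 4.96, 5.28 and 5.79 in EILP. In ILCp 1 to 5 it was 6.41, 6.28, 5.41, 6.06 and 6.85. ALP and EILP covered the same range, and 4 of the 5 ILCp libraries were above every other library, with ILCp 3 inside the range of the rest. The log2 difference was 0.26 ± 0.30 SE for EILP against ALP (adjusted p = 0.689). It was 0.88 ± 0.36 for ILCp against EILP (adjusted p = 0.217) and 1.14 ± 0.34 for ILCp against ALP (adjusted p = 0.0523), positive in batches 1, 2 and 4 in both cases. The last value passed in 8 of 32 alternatives, among them centring each library on its median (1.27, adjusted p = 0.0253) and leaving out ILCp 3 (1.31, adjusted p = 0.0220), with a range of 3.22e-08 to 1.

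**Figure D3:**
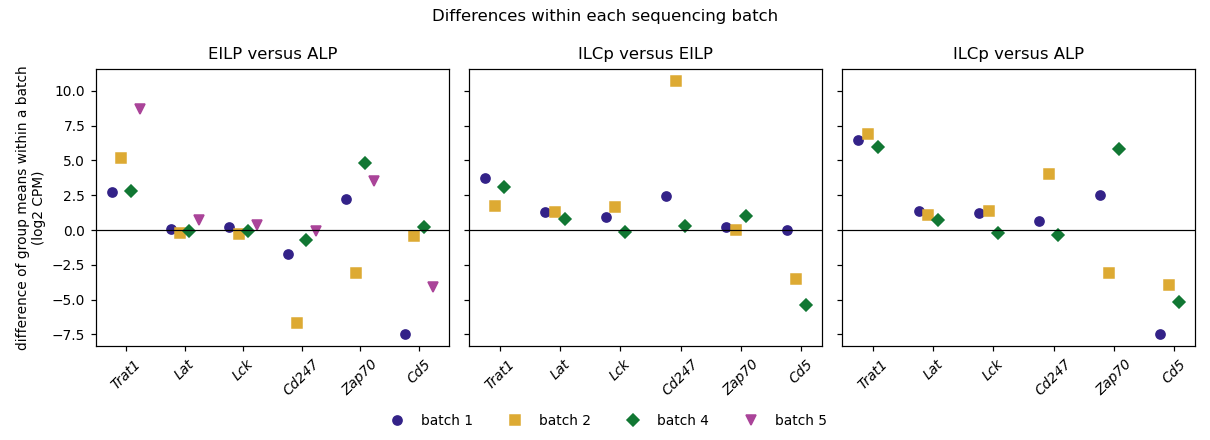
Difference in mean log2 CPM between groups within each sequencing batch that holds both groups, for Trat1, Lat, Lck, Cd247, Zap70 and Cd5. Trat1 is above 0 in every batch of every comparison, and Lat is above 0 in every batch for ILCp. Lat, Lck, Cd247, Zap70 and Cd5 each differ in sign between batches in at least 1 comparison.

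Lck, the kinase that phosphorylates the ITAMs, was the most abundant of the 10 genes in all 3 groups, and Zap70, the kinase recruited to them, was scarce. Lck was 7.55, 7.69 and 8.38 log2 CPM at the lowest, the median and the highest in ALP and 7.47, 7.88 and 8.34 in EILP. In ILCp 1 to 5 it was 8.82, 9.12, 7.92, 8.39 and 8.29. The ALP and EILP ranges were nearly the same, and ILCp 1, ILCp 2 and ILCp 4 were above both. The log2 difference was 0.14 ± 0.22 SE for EILP against ALP (adjusted p = 0.779), 0.54 ± 0.26 for ILCp against EILP (adjusted p = 0.312) and 0.68 ± 0.25 for ILCp against ALP (adjusted p = 0.117). The last was 1.19, 1.36 and −0.18 within batches 1, 2 and 4, and it passed without batch 4 (1.34, adjusted p = 0.00883), over a range of 6.74e-07 to 1 in 32 alternatives.

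Zap70 was −4.90, −0.91 and 5.01 log2 CPM at the lowest, the median and the highest in ALP and −1.12, 1.44 and 2.43 in EILP. It was 1.65, −1.12, 2.43, 0.63 and 4.27 in ILCp 1 to 5. Of the 19 libraries, ALP 6 had the lowest deposited value and ALP 2 the highest. ALP 3, EILP 2 and ILCp 2 were at the zero level of batch 2, −1.12. That level lies above the values of ALP 6 of batch 5 and ALP 4 of batch 4 (−3.39), so low values cannot be ranked between batches. No comparison passed. The log2 difference was 1.83 ± 1.52 SE for EILP against ALP (adjusted p = 0.575), 0.33 ± 1.803 for ILCp against EILP (adjusted p = 0.960) and 2.15 ± 1.74 for ILCp against ALP (adjusted p = 0.548). Its relative Syk, which serves the same step downstream of ITAMs in B cells and other blood cells, had mean levels of 7.61, 7.24 and 5.92 in ALP, EILP and ILCp. Syk was lower in ILCp than in EILP by a log2 difference of −1.32 ± 0.29 SE (adjusted p = 0.0212) and than in ALP by −1.68 ± 0.28 (adjusted p = 0.00108).

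Cd5, a surface protein that restrains receptor signalling and is also found on some B cells, had its highest mean level in ALP, unlike the CD3 chains. It was −3.52, 1.55 and 4.35 log2 CPM at the lowest, the median and the highest in ALP and −6.26, −0.02 and 1.99 in EILP. In ILCp 1 to 5 it was −3.90, −3.52, −6.22, −6.22 and −1.55. It was above the zero level in 6 of 7 ALP, 4 of 7 EILP and 1 of 5 ILCp, the last being ILCp 5, which also had the fewest rarely detected genes at zero. The log2 difference was −3.03 ± 1.79 SE for EILP against ALP (adjusted p = 0.416), −2.78 ± 2.11 for ILCp against EILP (adjusted p = 0.557) and −5.82 ± 2.04 for ILCp against ALP (adjusted p = 0.1001). None passed, although the last passed without ALP 3 (−6.95, adjusted p = 0.0388), the ALP library at the zero level, over a range of 3.70e-07 to 0.440 in 31 alternatives. Of the B cell genes that can be carried with Cd5, the summed CPM of 7 was 48.2 to 158 in ALP, 0.868 to 22.4 in EILP and 0.439 to 10.2 in ILCp, and their part in the Cd5 level was not tested.

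Over the whole list, 2 of 10 genes (Themis and Trat1) were higher and 0 lower in EILP than in ALP, where 2.25% of all genes tested were higher and 2.79% lower (5.05% together). These were also the 2 members with every EILP library above every ALP library, as were 2.36% of all genes. EILP 3 and EILP 4 are the only libraries of batch 3, and batch removal sets their mean to the EILP mean. They are therefore no independent evidence of this separation. ILCp against ALP had 4 of 10 higher (Themis, Trat1, Cd3d and Cd3g) and 0 lower, against 3.86% and 4.39% of all genes (8.24% together), and 3 members (Cd3d, Themis and Trat1) had every ILCp library above every ALP library, as had 4.01% of all genes. The 2 comparisons share the ALP libraries, and the members were chosen with earlier results of these data known. ILCp against EILP had 0 of 10 past the threshold in limma, against 3.21% of all genes (1.76% higher and 1.46% lower). Lat alone had an unadjusted limma p under 0.05. The median fitted log2 difference of all 10 members was 2.89 for EILP against ALP, 0.82 for ILCp against EILP and 2.58 for ILCp against ALP, of which the values against ALP depend in size on 4 members at the zero level there. The median of the 6 members with ALP libraries above the zero level or with none placed there was 0.20 for EILP against ALP, 0.71 for ILCp against EILP and 1.24 for ILCp against ALP, beside 0.00, −0.08 and −0.03 over all genes. Centring each library on its median moved the median of all genes by 0.22 for EILP against ALP and 0.13 for ILCp against ALP, and the split of calls with it, from 419 higher and 520 lower to 804 and 395 for EILP, and from 718 and 816 to 813 and 584 for ILCp. For ILCp against EILP the split moved from 327 and 271 to 279 and 390.

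EILP against the mean of ALP and ILCp asks whether a gene stands apart at the middle stage. Of the 10 genes only Themis passed (adjusted p = 0.000523), where 1.1% of all genes were higher and 1.32% lower (2.41% together), and this value rests on ALP being at the zero level. The 2 Plzf-cre-GFP/+ ILCp libraries and the 3 Tcf7EGFP/+ ones differed in 0 of 10 members in limma (every adjusted p = 1, and 0 with an unadjusted p under 0.05), against 0.0752% of all genes (0.0645% higher and 0.0107% lower). The reporter difference had a wide error, for example 0.31 ± 1.62 SE for Trat1 and −3.63 ± 3.00 for Cd3g. Batch 4 is the single batch holding both reporters. The fit also used ILCp libraries of other batches, linked to batch 4 through ALP and EILP. With only the ILCp libraries, batch 4 alone sets the difference. Cd3d (0.62), Cd247 (0.77) and Lck (0.42) then changed sign, and the other members did not.

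Per kilobase of exon, and on the log2 CPM per kb scale, the levels ran in ILCp from Lck at 6.96 through Lat at 4.73, Trat1 at 4.62, Cd247 at 3.11, Themis at 2.11, Cd3g at 0.28, Zap70 at −0.01 and Cd3d at −0.24 to Cd3e at −4.64 and Cd5 at −6.58. Lck exceeded Lat by 2.22 ± 0.52 (SD, n = 5), and Cd3d exceeded Cd3e by 4.40 ± 3.02, while all other neighbours in this order differed by less than 1 SD over the libraries. The ranks of Cd3e and Cd5, and the size of their distance from Cd3d, rest on undetected libraries, 3 of 5 for Cd3e and 4 of 5 for Cd5, and are no measured levels. In EILP the order began with Lck at 6.42, Lat at 3.85, Trat1 at 2.94 and Themis at 1.35. In ALP it began with Lck at 6.27, Lat at 3.59 and Cd247 at 1.76, and Trat1 came after Cd5 and Zap70 at −2.85. Some of these steps were within 1 SD over the libraries. They include Lat over Trat1 in EILP (0.92 ± 1.21), and Cd5 over Zap70 (1.39 ± 3.25) and Zap70 over Trat1 (0.69 ± 4.42) in ALP. Lck thus led Lat in every library of all 3 groups, by 2.69 ± 0.38 in ALP and 2.57 ± 0.30 in EILP (SD, n = 7 each).

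The wider pathway around these genes was read from 40 other proximal signalling genes, all present in the table. Their summed CPM was 2515 to 3655 in ALP, 2795 to 3435 in EILP and 4024 to 6845 in ILCp, so that every ILCp library lay above all others. In EILP against ALP, 4 were higher, 3 were lower and 33 did not pass, with a median log2 difference of 0.09. Of all genes, 2.25% were higher and 2.79% lower, with a median of 0.00. Grb2, the adaptor that links Lat to Ras activation, was higher by 1.47 ± 0.11 SE (adjusted p = 4.52e-07). The inhibitory adaptor Sla2 was higher by 1.19 ± 0.25 (adjusted p = 0.00926), and Rasgrp1, a Ras activator at the zero level in 5 of 7 ALP, passed as well (adjusted p = 0.00442). Plcg1, phospholipase C gamma 1, was lower by a difference of −1.51 ± 0.26 (adjusted p = 0.00231), as were the adaptors Sh2d2a (−6.07 ± 1.48, adjusted p = 0.0235) and Lax1 (−1.41 ± 0.39, adjusted p = 0.0463).

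ILCp against EILP had 6 of the 40 higher and 3 lower, with a median of 0.73. Over all genes, 1.76% were higher and 1.46% lower, with a median of −0.08. Prkcq, the protein kinase C theta of T cells, was higher by 2.51 ± 0.49 SE (adjusted p = 0.0110), Sh2d2a by 8.71 ± 1.75 (adjusted p = 0.0138), Lcp2, the SLP-76 adaptor that joins Lat, by 1.87 ± 0.40 (adjusted p = 0.0186), and its partner Grap2 by 4.44 ± 1.00 (adjusted p = 0.0242). Grb2 was lower by a difference of −0.88 ± 0.13 (adjusted p = 0.00165), the phosphatase gene Ptpn6 by −0.78 ± 0.19 (adjusted p = 0.0364), and Ubash3a by −4.78 ± 1.22 (adjusted p = 0.0442). Sh2d2a had means of 2.26, −3.81 and 4.90 log2 CPM in ALP, EILP and ILCp. No EILP library could be placed above the zero level for it (2 at zero and 5 not resolved), so the size of its differences from EILP depends on that level.

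ILCp against ALP had 12 of the 40 higher and 4 lower, with a median of 0.64. Over all genes, 3.86% were higher and 4.39% lower, with a median of −0.03. Txk, a Tec-family kinase gene, had mean levels of −3.95, 1.04 and 8.08 log2 CPM in ALP, EILP and ILCp and was higher in ILCp than in ALP by 12.02 ± 1.81 SE (adjusted p = 0.000501). The size of this value depends on ALP libraries at or near the zero level. Prkcq (3.46 ± 0.47, adjusted p = 0.000203) and Lcp2 (2.48 ± 0.38, adjusted p = 0.000672) were higher too. Ptpn6 (−0.74 ± 0.18, adjusted p = 0.0197), Ubash3a (−4.51 ± 1.17, adjusted p = 0.0252), Plcg1 (−1.10 ± 0.30, adjusted p = 0.0326) and the diacylglycerol kinase gene Dgkz (−0.87 ± 0.24, adjusted p = 0.0367) were lower.

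**Figure D4:**
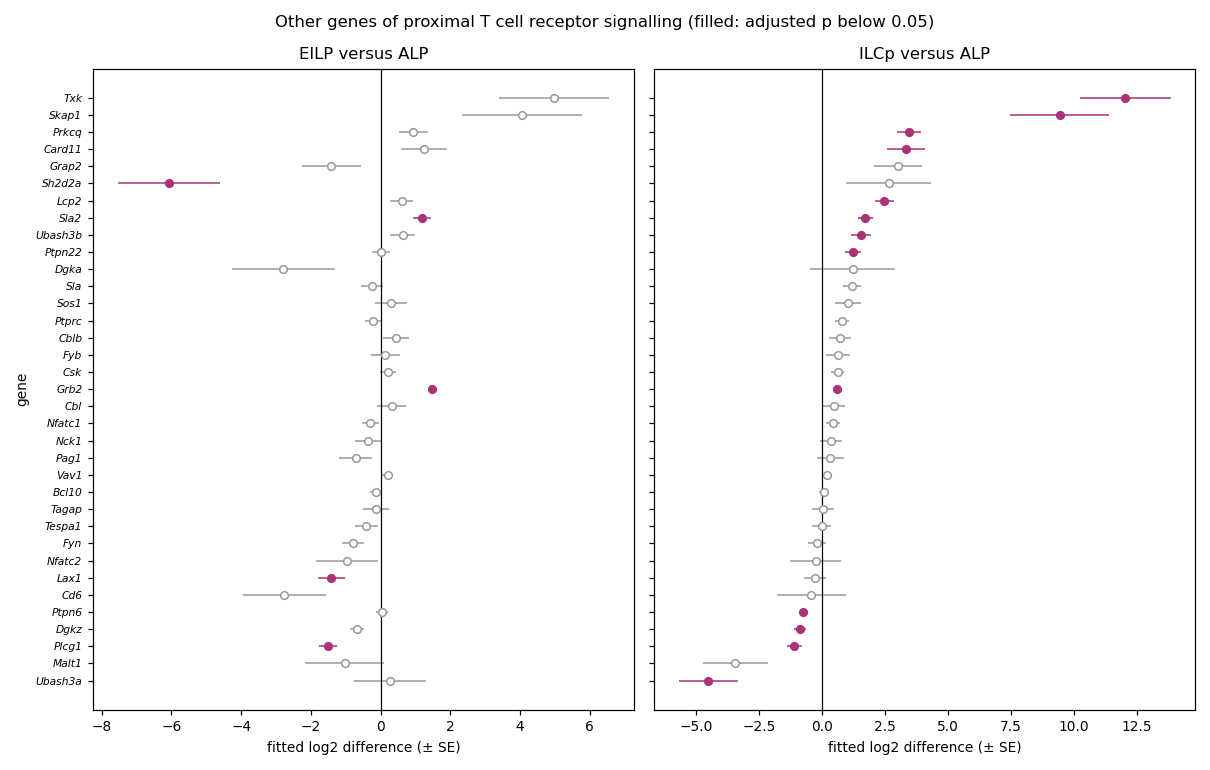
Fitted log2 difference ± SE of 35 proximal signalling genes for EILP against ALP and ILCp against ALP, with filled points past adjusted p below 0.05. Lime1, Rasgrp1, Sh2d1a and Sit1 are left out because no ALP library was above the zero level for them. Of the genes shown, Txk lies farthest to the right for ILCp.

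Other signalling proteins that serve receptors of innate cells, B cells and others, most of them adaptors with ITAMs, were read from a list of 6 genes. In this list, which holds Syk, Fcer1g was higher in EILP than in ALP (1.03 ± 0.29 SE, adjusted p = 0.0498) and in ILCp than in ALP (1.22 ± 0.33, adjusted p = 0.0296). Its mean levels were 6.79, 7.82 and 8.01 log2 CPM in ALP, EILP and ILCp. Tyrobp had means of 7.38, 8.49 and 8.48. Cd79b, a B cell receptor chain, was lower in ILCp than in ALP (−0.87 ± 0.26, adjusted p = 0.0497), as was Syk.

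The genes most like each member were found by Pearson correlation over the 19 libraries among 9299 genes above the median level. These values are descriptions with no p, since the libraries share stage and batch removal. Themis ran closest to Rxrg (0.990), Tox2 (0.985) and Fgf3 (0.981), and Trat1 to Tmsb4x (0.967), Pdcd1 (0.955) and Id2 (0.948). The closest gene was 6030458C11Rik for Cd3d (0.908), Galt for Cd3e (0.863), Lsp1 for Cd3g (0.858) and Enthd2 for Cd247 (0.915). It was Smco4 for Lat (0.878), Ap5m1 for Lck (0.888), Ube2z for Zap70 (0.832) and Trp53rk for Cd5 (0.829).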

How the data were processed

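Per the labels' protocols, RNA was purified on RNeasy plus micro columns, amplified with SMARTer Ultra Low v3 and tagmented with Nextera XT. The deposited table holds log2 CPM for 18607 genes in 19 libraries, beside 9 empty columns. The submitters' processing notes name bcl2fastq 1.8.4, STAR 2.4.0h, edgeR, limma and mm10, and the sources used here do not give the counting method or annotation. The deposited log2 values hold no batch difference beside the groups (every batch coefficient below 0.0001). No header records how this was done or how libraries were scaled, and library medians differed (2.13 to 3.00).

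The libraries were grouped by title and by the 5 batches of the labels. Batch 3 holds 2 EILP libraries, which bear on errors and not on differences. The test was limma 3.58.1 (R 4.3.3), two-sided and moderated with a trend, with group and batch in the model, over all 18607 genes, with Benjamini-Hochberg adjusted p below 0.05. Differences carry the model's SE and levels the SD over libraries. A library was taken as at the zero level where it tied with others at the lowest value of its batch, or where the lowest values of the 5 batches averaged to −4.96 (tolerance 0.002). The members and the gene lists were chosen with earlier results of these data known. Named outside the members were up to 4 genes per list, direction and comparison with the smallest p, and the 3 most similar genes per member. Some results that this rule took are not reported here. Trbc1, Trbc2, Trac, Cd4, Cd8a, Cd8b1, Cd2, Cd27, Flt3, Tcf7, Thy1, Il2rb, Klrb1c, Prf1, Tyrobp, Gm16565 and Pou2f1 were also given for context after their values were seen.

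The alternatives were no batch term, batch as a random effect, the replicate number as a block, only the groups compared, no batch 3, no Plzf-cre-GFP libraries, other scaling, only genes above the median level, no trend, a required 2-fold change, and each library left out. Leaving out batch 4, or ALP 7 and EILP 2 together, was added after seeing the data. The fit was tested on simulated data. Of 17 pairs of same-numbered libraries, 1 had a correlation of deviations above 0.1. Removing batch makes the deviations within a batch cancel, so this cannot show whether same-numbered libraries are paired.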

Additional observations from a re-analysis of the deposited data

Results flagged for a closer look

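With 30 groups of values examined, a single library far from its group was found in 2, and chance gives about 1 in 20. Cd247 in EILP 2 was −1.94 log2 CPM, while the other 6 EILP libraries lay between 2.11 and 4.31. EILP 2 had 89.8% of rarely detected genes at the zero level, the highest share in EILP, and the part of this in its Cd247 value was not tested. Themis in ALP 4 was −3.79 log2 CPM, while the other 6 ALP libraries lay between −5.40 and −5.03, and ALP 4 could not be placed as at or above the zero level.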

How the results depend on the processing

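Themis and Trat1 kept their calls against ALP in every alternative that tested them. Because the deposited values hold no batch difference, fits without a batch term or with batch as a random effect (correlation −0.24) have errors that are too small. Counts of called genes, from 939 (EILP against ALP), 598 (ILCp against EILP), 1534 (ILCp against ALP), 449 (EILP against the mean of the others) and 14 (reporters), became 2551, 3047, 3856, 2476 and 6 with no batch term, and 3391, 8201, 11612, 4222 and 0 with batch as a random effect. With the replicate number as a block, they became 1613, 1484, 2362, 1165 and 0. Whether same-numbered libraries are paired could not be checked (correlations −0.64 to 0.12), because batch was removed. Requiring a 2-fold change left 266, 46, 397, 68 and 7, and leaving out batch 4 left 583, 258, 855 and 221 in the first 4. With only the groups compared, the counts were 183 (ILCp against EILP), 772 (ILCp against ALP) and 540 (reporters), and without the Plzf-cre-GFP libraries 254 and 1012 for the first 2 of these. Without the trend they were 280 for ILCp against EILP, 277 for EILP against the mean and 33 for reporters, and without ALP 7 and EILP 2 they were 309 and 259 for the first 2 of these. Reporter calls were 37 without batch 3, 9 with quantile normalization and 0 among genes above the median level. Leaving out each library gave 696 to 964, 224 to 624, 920 to 1584, 233 to 452 and 11 to 236. The lowest were without EILP 5 (224 and 233) and ILCp 2 (920).

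Members called, from 2, 0, 4, 1 and 0, became 5, 1, 7, 3 and 0 with no batch term and 5, 6, 10, 4 and 0 with batch as a random effect. The setting with only genes above the median level leaves Cd3d, Cd3e, Cd3g, Themis, Zap70 and Cd5 untested. Members called there were 1 for EILP against ALP, 2 for ILCp against ALP and 0 for EILP against the mean. The 2 were Trat1 and, as a new call, Lat (limma adjusted p = 0.0343). A 2-fold requirement left 2 for ILCp against ALP. For ILCp against EILP, only the groups compared gave 1 (Trat1), and leaving out batch 4 gave 1 (Lck). Leaving out each library gave 2 to 4, 0 to 0, 2 to 4, 1 to 1 and 0 to 0. The 4 in EILP against ALP came without EILP 6, with Cd3d (adjusted p = 0.0437) and Cd3e (adjusted p = 0.0228).

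No sign change was of a called value. Zap70 in ILCp against EILP was −0.25 without the Plzf-cre-GFP libraries, −1.21 without batch 4, −0.997 without ALP 7 and EILP 2, and −0.55 to 1.69 with each library left out. Cd247 in ILCp against ALP was −0.49 to 2.28. In EILP against the mean, Cd5 was 0.012 without the Plzf-cre-GFP libraries, 0.029 with median centring, 0.11 with quantile normalization and −1.12 to 1.01 with each library left out, and without batch 4 Cd3d was −0.29 and Cd3g −0.17. Between reporters, Themis was −0.71 with the replicate block, and with only the groups compared Cd3d was 0.62, Cd247 0.77 and Lck 0.42. There, with each library left out, Cd247 was −4.01 to 0.0665, Cd3e −0.46 to 2.39, Cd3g −7.99 to 0.74, Cd5 −1.50 to 3.17, Lat −0.0843 to 0.93, Themis −1.20 to 1.11 and Trat1 −0.28 to 1.01. The causes were not tested. Depth is unknown, so an undetected transcript cannot be told from one below detection.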

Other observations

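Some genes of natural killer cells and of the B lineage also differed beside the CD3 genes. Of 10 natural killer cell genes, 3 were higher and 0 lower in EILP than in ALP, and 5 were higher and 0 lower in ILCp than in ALP (limma adjusted p below 0.05). Of all genes, 2.25% were higher and 2.79% lower in the first comparison, and 3.86% and 4.39% in the second. Nkg7, a granule protein of cytotoxic cells, had mean levels of 7.46, 8.93 and 8.93 log2 CPM in ALP, EILP and ILCp and was higher in EILP than in ALP by 1.48 ± 0.20 SE (adjusted p = 0.000276). The transcription factor gene Eomes was at the zero level in 7 of 7 ALP and 1 of 7 EILP and passed in EILP against ALP (adjusted p = 0.000993). Tbx21, which encodes the related factor T-bet, was at the zero level in 6 of 7 ALP, 5 of 7 EILP and 1 of 5 ILCp and passed in ILCp against ALP (adjusted p = 0.0139). In the same list, Klrb1c had means of 0.24, −0.45 and −3.39 in ALP, EILP and ILCp, and Prf1 had −2.43, −5.03 and −3.42. Both were thus lower on average in EILP and ILCp than in ALP, but neither passed. Of 7 B lineage genes, 3 were lower in EILP than in ALP, where 2.79% of all genes were lower. Among the 3 was Blnk, an adaptor that acts below the B cell receptor as Lcp2 does in T cells. Blnk had mean levels of 5.83, −1.57 and −3.20 log2 CPM in ALP, EILP and ILCp.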
